A study of Homo sapiens with 4 samples.

Results

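The genes described here encode the enzymes of glycolysis and of the pentose phosphate pathway, the enzymes that decide the fate of pyruvate, and the regulators and targets of the response to low oxygen. They were chosen by name, as 39 gene symbols, and 37 of them were found among the 11597 genes of the authors' deposited table. HK3, the hexokinase of granulocytes, and PFKM, the muscle phosphofructokinase, had no row there and were not analysed. The cells were MOLM13, a human acute myeloid leukaemia line, infected with lentivirus and collected 3 days later. In both groups infection was by a spin of 60 min at 1500 rcf and 32 °C with 5 µg/mL polybrene, and the cells were kept with serum. One group of 2 libraries received a BTG2 cDNA and the other, also of 2 libraries, the empty vector. Both groups were of the same line and carried the same vector backbone, in which an EF1α promoter drives the insert together with puromycin resistance and the green fluorescent protein ZsGreen. The labels mention neither selection nor sorting of the infected cells. BTG2 is an antiproliferative adaptor protein that brings the CCR4-NOT deadenylase to messenger RNA, and the design text names its effect on mRNA stability as the question.

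Glycolysis splits glucose into pyruvate in the cytosol and yields ATP and NADH. The pentose phosphate pathway branches off at glucose 6-phosphate, makes NADPH and ribose 5-phosphate for nucleotides, and returns its carbon to glycolysis through transketolase and transaldolase. In cells short of oxygen, or in many leukaemias also with oxygen, the transcription factor HIF-1, a dimer of HIF1A and ARNT, raises the transcription of glycolytic genes and of others that adapt the cell to hypoxia. HIF-1 binds a short DNA motif, and prolyl hydroxylases such as EGLN1 and EGLN2 mark HIF1A for destruction when oxygen is present.

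Only the pooled comparison was analysed here. Each gene has one mean normalized count over the libraries, a log2 fold change of BTG2 over empty vector, its standard error (SE) and an adjusted p. Values per library, their spread and their depth are therefore not given, and the number of libraries that share a direction cannot be counted. A gene was called where the authors' adjusted p was under 0.05, and 95% intervals were computed from the deposited SE. The labels do not say whether replicates were separate cultures, so the deposited p-values measure the spread between these libraries, which may be technical. The overexpressed gene itself, BTG2, stood at a log2 fold change of 5.01 (SE 0.09) in the authors' deposited table. All 10 myeloid leukaemia markers examined were listed, at mean counts from 71.6 to 6277 in the authors' deposited table, whereas 0 of 9 markers of T cells, B cells and erythroid cells had a row. Of the 10 myeloid markers, FLT3 and HOXA9 were called higher with BTG2 and CEBPA, LYZ and MPO lower, and the part of these changes in the values below was not tested.

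Of the 37 genes, 5 rose and 2 fell with BTG2. All 7 encode metabolic enzymes, as do 28 of the 37. Glucose-6-phosphate isomerase (GPI), triosephosphate isomerase (TPI1), enolase 1 (ENO1), the B subunit of lactate dehydrogenase (LDHB) and transketolase (TKT) were the genes that rose, by 1.26-fold to 1.73-fold in the authors' deposited table. The platelet-type phosphofructokinase PFKP and phosphoglycerate mutase 1 (PGAM1) were the genes that fell, to 0.824 and 0.836 of the empty-vector level. Of the 9 hypoxia regulators and targets 0 were called by the authors' test, with 1 at an unadjusted p under 0.05. Among the 28 enzymes 25.0% were called, and the difference between these 2 groups was not tested. The called share was 18.9% of the 37 genes, against 8.11% of all genes in either direction, 3.64% higher and 4.47% lower. The balance of directions over all genes turned with the centring, from 422 higher and 518 lower as deposited to 500 higher and 433 lower after a shift of -0.03 that sets the median abundant gene to 0, under which the 5 and 2 genes called here numbered the same. Abundant genes are called more often, and 34 of the 37 have a mean count of at least 151, the median of the table. Among all genes with that count or more, 13.6% were called, 6.02% higher and 7.6% lower, and among the 34 it was 20.6%. The median log2 fold change of the 37 genes was 0.02, beside 0.00 over all genes, with 21 positive and 16 negative values. The genes were named with results of these data known, so no test of the group was made.

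**Figure D1:**
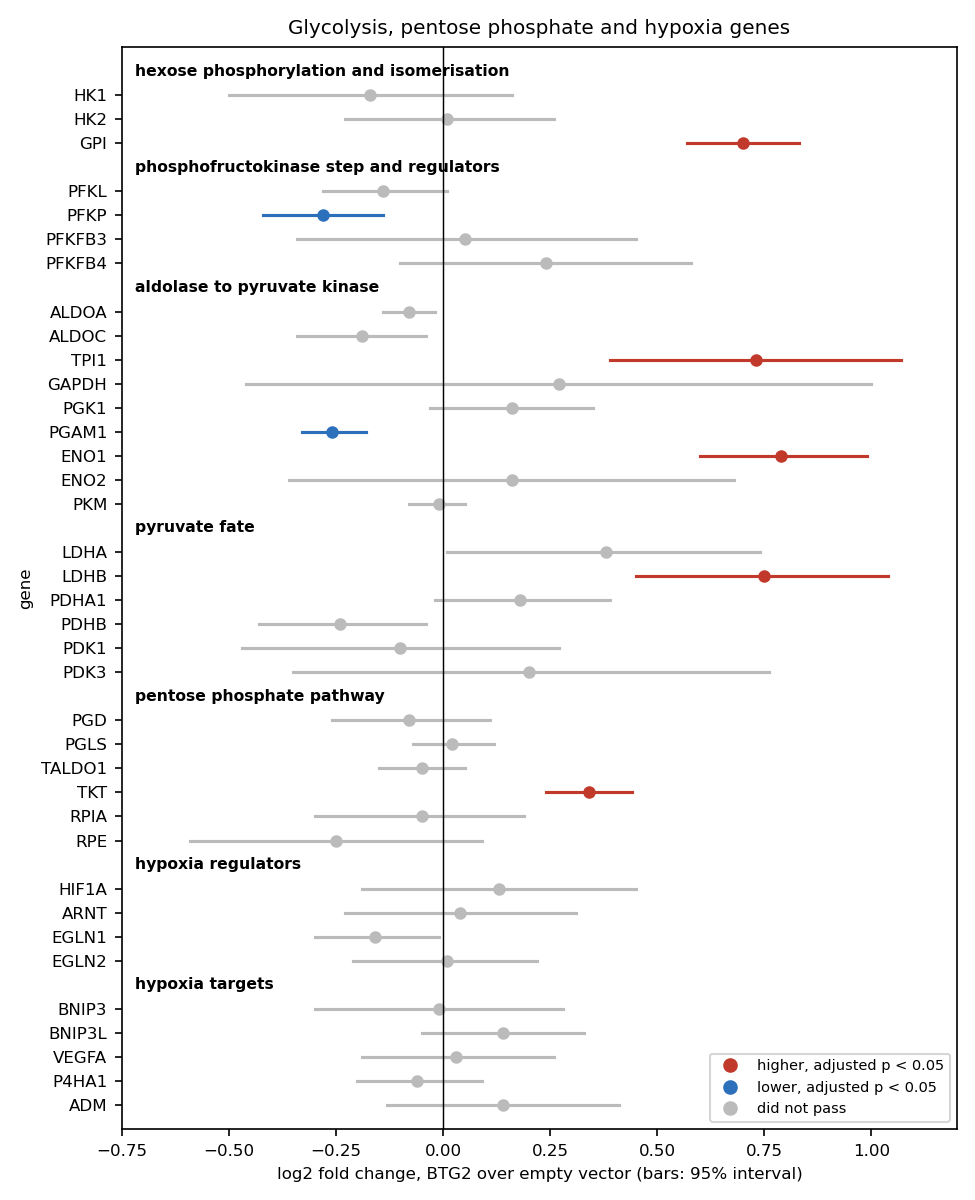
Log2 fold change of BTG2 over empty vector (horizontal axis) for each of the 37 listed genes (vertical axis, grouped by role), with points for the deposited value and bars for the 95% interval from its SE. The 5 genes that rose are red, the 2 that fell blue and the 30 that did not pass grey; the red points lie between 0.34 and 0.79, and the hypoxia genes at the bottom all lie between -0.16 and 0.14.

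Glucose enters the pathway through hexokinase, and the isomerase GPI then converts glucose 6-phosphate to fructose 6-phosphate, the step at which the pentose phosphate branch leaves. GPI (ENSG00000105220.17; chromosome 19, 34359480 to 34402413, plus strand, in GENCODE release 29 on GRCh38) had a mean normalized count of 2412 in the authors' deposited table. Its log2 fold change in the authors' deposited table was 0.70 (SE 0.07, adjusted p = 3.07e-24), a rise of 62.6% with a 95% interval from 1.49-fold to 1.78-fold. It had the smallest adjusted p of the 37 genes. Both listed hexokinases stayed below the threshold. HK2, the inducible hexokinase of many tumours, was at 0.01 (95% interval -0.23 to 0.26) and the housekeeping hexokinase HK1 at -0.17 (-0.50 to 0.16) in the authors' deposited table. The intervals of both hexokinases end below the lower bound of GPI, 0.57, but the difference between the genes was not tested.

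Phosphofructokinase makes the first committed step of glycolysis, and PFKFB enzymes set the level of its activator fructose 2,6-bisphosphate. PFKP (ENSG00000067057.19; chromosome 10, 3066333 to 3137712, plus strand) fell by 0.28 on the log2 scale (SE 0.07, adjusted p = 0.00189) at a mean count of 1092 in the authors' deposited table. This was a fall of 17.6%. The liver-type subunit PFKL had a value of -0.14 (SE 0.07, adjusted p = 0.323) at a mean count of 1460 in the authors' deposited table. The 2 PFKFB genes were less precise, with PFKFB4 at 0.24 (SE 0.17) and PFKFB3 at 0.05 (SE 0.20), and neither passed in the authors' deposited table.

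The 9 genes from aldolase to pyruvate kinase carry glycolysis from fructose 1,6-bisphosphate to pyruvate. Of these, TPI1 and ENO1 rose, PGAM1 fell and 6 did not pass. TPI1 interconverts the 2 triose phosphates that aldolase makes. TPI1 (ENSG00000111669.15; chromosome 12, 6867119 to 6870948, plus strand) had a log2 fold change of 0.73 (SE 0.17, adjusted p = 0.000898) at a mean count of 169 in the authors' deposited table. ENO1, which makes phosphoenolpyruvate, showed the highest value of the 37 genes. ENO1 (ENSG00000074800.16; chromosome 1, 8861000 to 8879250, minus strand) stood at 0.79 (SE 0.10, adjusted p = 5.23e-13) with a mean count of 569 in the authors' deposited table, a rise of 73.5%. PGAM1, which acts directly before enolase, went the other way. PGAM1 (ENSG00000171314.9; chromosome 10, 97426160 to 97433441, plus strand) fell by 0.26 on the log2 scale (SE 0.04, adjusted p = 4.62e-09) with a mean count of 7547 in the authors' deposited table, a fall of 16.4%. The 95% intervals of ENO1 (0.60 to 0.99) and PGAM1 (-0.33 to -0.18) lie on opposite sides of 0.

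The other 6 genes of this stretch did not pass. In the authors' deposited table the aldolase genes both had negative values, ALDOC -0.19 (SE 0.07, adjusted p = 0.107) and ALDOA -0.08 (SE 0.03, adjusted p = 0.119), with intervals that end below 0. These are the closest of the 30 genes that did not pass to the threshold of 0.05. PKM, the pyruvate kinase that closes the pathway, was at -0.01 (SE 0.03), with the interval from -0.08 to 0.05, in the authors' deposited table. PGK1, which makes the first ATP of the pathway, was at 0.16 (SE 0.10) there, and the neuronal enolase ENO2 also at 0.16 (SE 0.26). GAPDH had the widest interval of the 37 genes, -0.46 to 1.00 around 0.27, at a mean count of 40.2 in the authors' deposited table, which reaches up to a 2-fold rise.

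**Figure D2:**
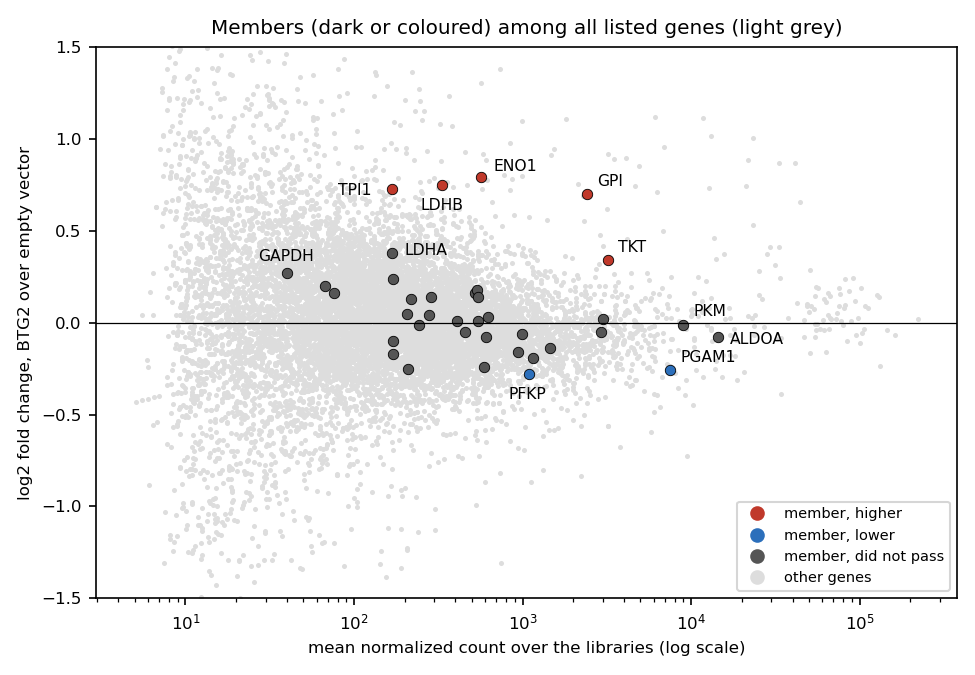
Log2 fold change (vertical axis) against mean normalized count (horizontal axis, log scale) for all listed genes in light grey, with the 37 genes over them, red where they rose, blue where they fell and dark grey where they did not pass. The vertical axis ends at 1.5 in either direction and leaves out 138 genes, none of them among the 37; ENO1, TPI1 and LDHB stand at mean counts from 169 to 569, PGAM1 at 7547.

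Pyruvate is reduced to lactate by lactate dehydrogenase or enters mitochondria, where the pyruvate dehydrogenase complex turns it into acetyl-CoA and PDK kinases switch that complex off. LDHB (ENSG00000111716.14; chromosome 12, 21635342 to 21757857, minus strand) had a log2 fold change of 0.75 (SE 0.15, adjusted p = 2.69e-05), a rise of 67.6%, at a mean count of 331 in the authors' deposited table. Its partner subunit gene LDHA had a value of 0.38 (SE 0.19, adjusted p = 0.257) at a mean count of 168 in the authors' deposited table. The intervals of LDHB (0.45 to 1.04) and LDHA (0.01 to 0.74) overlap. PDHA1 and PDHB encode the alpha and beta subunits of the same enzyme, the first component of pyruvate dehydrogenase, and had values of opposite sign. In the authors' deposited table PDHA1 was at 0.18 (SE 0.10, adjusted p = 0.362) and PDHB at -0.24 (SE 0.10, adjusted p = 0.142), and neither passed. The kinases PDK1, a HIF-1 target, and PDK3 were at -0.10 (SE 0.19) and 0.20 (SE 0.28) in the authors' deposited table and did not pass.

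In the pentose phosphate pathway TKT was the gene called, out of 6. Transketolase moves 2-carbon units between sugars and links the pathway back to glycolysis. TKT (ENSG00000163931.17; chromosome 3, 53224707 to 53256052, minus strand) rose by 26.3%, or 0.34 on the log2 scale (SE 0.05, adjusted p = 3.76e-09), at a mean count of 3213 in the authors' deposited table. Transaldolase, the other enzyme of that link, was at -0.05 (TALDO1, SE 0.05, 95% interval -0.15 to 0.05) with a mean count of 2912 in the authors' deposited table, an interval that lies below that of TKT (0.24 to 0.44). The oxidative branch showed small values. PGD, which makes NADPH, had -0.08 (SE 0.09) and the lactonase PGLS 0.02 (SE 0.05) in the authors' deposited table. The isomerase RPIA was at -0.05 (SE 0.13) and the epimerase RPE at -0.25 (SE 0.18) there.

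The hypoxia genes were close to 0. Of the regulators, HIF1A had a value of 0.13 (SE 0.16), its partner ARNT 0.04 (SE 0.14) and the hydroxylase EGLN2 0.01 (SE 0.11) in the authors' deposited table. EGLN1, the main oxygen-sensing hydroxylase and itself a HIF-1 target, stood in the authors' deposited table at -0.16 (SE 0.08, unadjusted p = 0.041, adjusted p = 0.251). Of the targets, the mitophagy receptors BNIP3 and BNIP3L had -0.01 (SE 0.15) and 0.14 (SE 0.10) in the authors' deposited table. The angiogenic factor VEGFA was at 0.03 (SE 0.11), the collagen prolyl hydroxylase subunit P4HA1 at -0.06 (SE 0.07) and the vasoactive peptide gene ADM at 0.14 (SE 0.14) there. The 95% intervals of the 9 genes ran from -0.30 at the lowest to 0.45 at the highest bound. Intervals of this width do not show that the genes were unaffected. The log2 fold changes of GPI, TPI1, LDHB and ENO1, from 0.70 to 0.79, lie above the upper bound of each. That of TKT, 0.34, lies below the upper bound of HIF1A, 0.45. The interval of TPI1 (0.39 to 1.07) overlaps that of HIF1A, and the differences between genes were not tested.

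A further 65 genes of the same pathways were read in the same way, chosen by function (transporters, further isozymes, pyruvate dehydrogenase partners, the VHL complex and hypoxia targets). Of these 44 had a row, 1 rose and 2 fell, a called share of 6.82% beside 8.11% of all genes. The median mean count of the 44 was 346. The share of 13.6% among genes with a mean count of at least 151 is therefore the closer comparison. ELOB, the elongin B of the VHL ubiquitin ligase, rose, with a log2 fold change in the authors' deposited table of 0.49 (SE 0.10, adjusted p = 4.12e-05). DDIT4, a stress-induced inhibitor of mTORC1 and a HIF-1 target, fell, with a value in the authors' deposited table of -0.31 (SE 0.03, adjusted p = 6.14e-20). BSG, the chaperone of the lactate transporters, had a value in the authors' deposited table of -0.15 (SE 0.04, adjusted p = 0.0025) and so fell too. The glucose transporters SLC2A1 and SLC2A3 were at 0.13 (SE 0.15) and -0.17 (SE 0.09), and the lactate transporters SLC16A1 and SLC16A3 at -0.18 (SE 0.14) and 0.32 (SE 0.21), in the authors' deposited table. The hypoxia targets NDRG1 (0.02, SE 0.10), KDM3A (0.03, SE 0.12) and FAM162A (-0.04, SE 0.11) did not pass either in the authors' deposited table. CA9 was at 0.16 (SE 0.61) with a mean count of 16.4 there, so its sign is not resolved. Values of other further genes that were not called were larger in size. In the authors' deposited table BHLHE40 was at 0.41 (SE 0.16), ERO1A at 0.34 (SE 0.18) and MXI1 at 0.25 (SE 0.10). MAFF was at -0.82 (SE 0.46) with a mean count of 24.4 there.

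**Figure D3:**
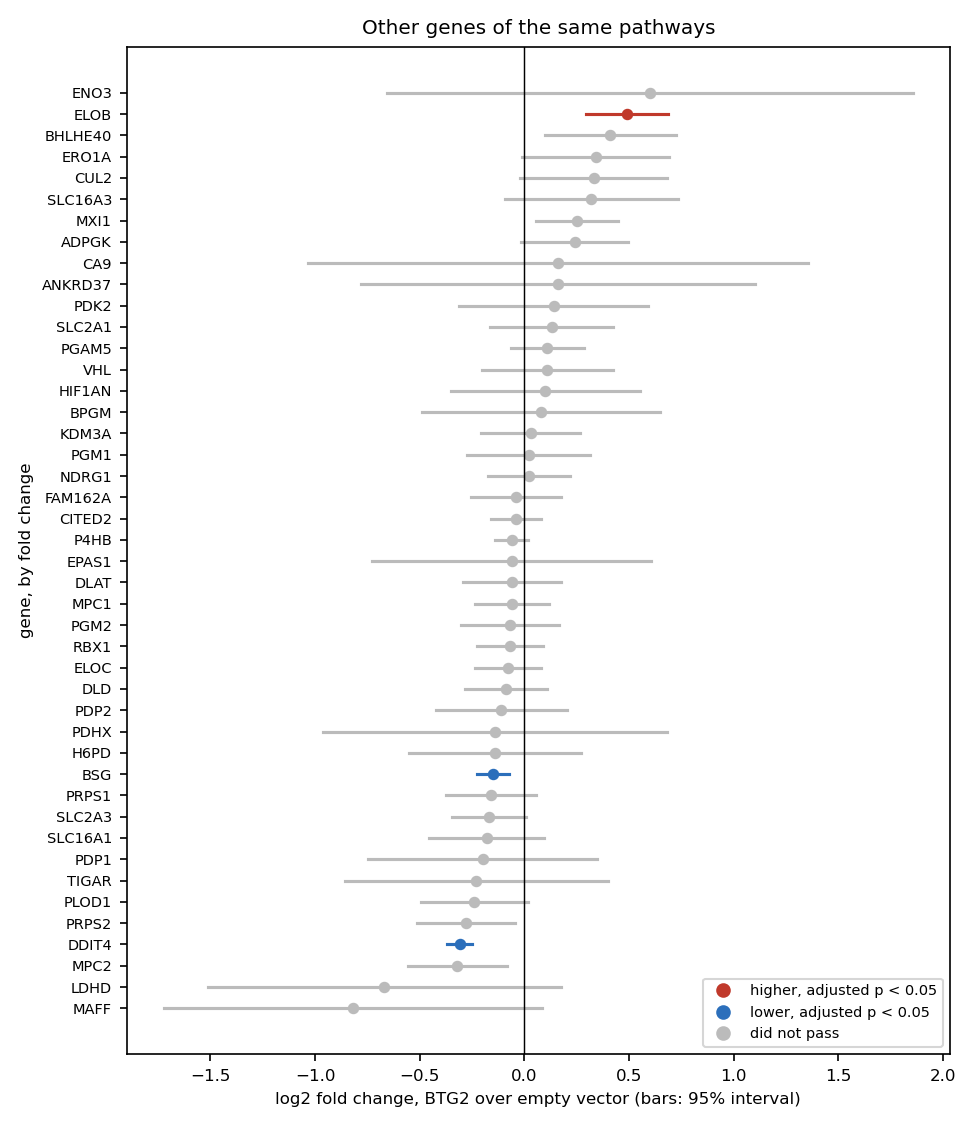
Log2 fold change of BTG2 over empty vector (horizontal axis) of the 44 listed further genes of these pathways (vertical axis, ordered by value), with points for the deposited value and bars for the 95% interval. ELOB at 0.49 is the 1 gene in red, and BSG at -0.15 and DDIT4 at -0.31 are the 2 in blue.

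Levels of different genes were compared per length, as the mean normalized count per kb of the principal coding transcript in GENCODE release 29. On that scale ALDOA was highest at 8970, followed by PGAM1 (4120), PKM (3280), PGLS (2940), TALDO1 (2160) and TKT (1070), from the means in the authors' deposited table. GAPDH, usually among the most abundant messages of any cell, was at 21.4 per kb. The counts assigned to ALDOA were thus 418 times higher per kb. GAPDH has 12 close copies (defined below), and 1 of them, GAPDHP1, held 2.92 times its mean count, so this ratio need not be that of the messages. TPI1 was at 137 per kb, LDHB at 215, LDHA at 69.7, PGK1 at 108 and ENO1 at 243. Within pairs of related genes, the level per kb was 15.4 times higher for ALDOA than for ALDOC, 8.97 times for ENO1 than for ENO2 and 3.08 times for LDHB than for LDHA. HK2 was 1.5 times HK1 and PFKL 1.22 times PFKP on the same scale. The labels describe a short-fragment kit whereas the design text speaks of long reads, and which of them made the counts, and so whether counts grow with length, is not stated. Without scaling to length, an alternative chosen after seeing the data, the order by mean count in the authors' deposited table was ALDOA (14376), PKM (8910), PGAM1 (7547), TKT (3213), PGLS (3018) and TALDO1 (2912). The ratio of LDHB to LDHA was then 1.96 and that of HK2 to HK1 2.4, while the other ratios given here moved by less than 1.5 times. Without values per library these levels carry no error. They are levels of the counts assigned to each gene. HK2, TPI1, GAPDH, PGK1, PGAM1, ENO1, PKM, LDHA and LDHB have close copies, and the part of these copies in the levels and ratios was not tested.

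**Figure D4:**
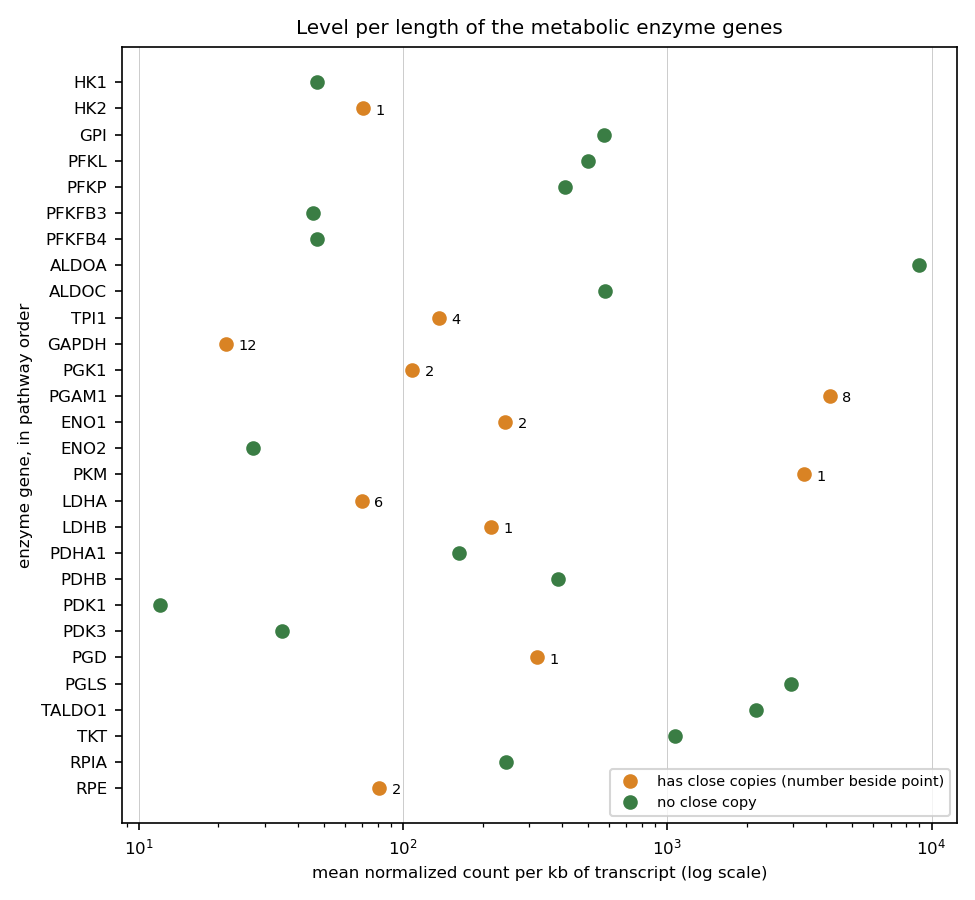
Mean normalized count per kb of transcript (horizontal axis, log scale) of the 28 listed enzyme genes (vertical axis, pathway order), orange with the number of close copies beside the point where such copies exist and green where none was found. GAPDH, with 12 copies, is at 21.4 and PGAM1, with 8, at 4120.

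Several of these genes have processed pseudogenes, copies of their spliced message elsewhere in the genome, to which reads of the parent gene can be assigned. A close copy was counted where another gene's transcript matched at least 50% of the coding sequence at 90% identity or more. By that measure 12 of the 39 genes had 41 close copies in GENCODE release 29, among them GAPDH with 12, PGAM1 with 8, LDHA with 6, TPI1 with 4 and ENO1 and PGK1 with 2 each. Not all are pseudogenes, as EDARADD (for ENO1), PGAM4 (for PGAM1) and RPEL1 (for RPE) are annotated as protein-coding. EDARADD and ENO1P1 both match ENO1 at 93.2% identity, and whether they share 1 stretch of sequence was not examined. Of the 41 copies 5 had a row. GAPDHP1 had a mean count of 117, which is 2.92 times that of GAPDH, with a log2 fold change of -0.01 (SE 0.25), in the authors' deposited table. BNIP3P1 had a mean count of 1505 in the authors' deposited table, or 6.16 times that of BNIP3. The counts assigned to this copy fell, at -0.32 (SE 0.06, adjusted p = 1.24e-05), and BNIP3 itself was at -0.01 in the authors' deposited table. LDHBP2 (-0.84, SE 0.42), PGK1P1 (-0.44, SE 0.78) and ENO1P1 (-0.27, SE 0.71) did not pass, at mean counts from 11.2 to 29.3 in the authors' deposited table. The values of these 3 copies are of the opposite sign to those of their parents LDHB, PGK1 and ENO1. The SEs of PGK1P1 and ENO1P1 exceed the size of their values, so the signs of these 2 are not resolved. Mean counts of LDHBP2, PGK1P1 and ENO1P1 were 0.0885, 0.0214 and 0.0217 times those of the parents.

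Of the 7 called genes, TPI1, ENO1, LDHB and PGAM1 have close copies, and their values are uncertain to that extent. GPI, TKT and PFKP have none. Among the 12 genes with copies 4 were called, or 33.3%, and among the 25 listed genes without copies 3 were called, or 12.0%. The share was 8.11% of all genes, but 13.6% of those with at least the median mean count of 151. The median mean count was 369 in the genes with copies and 548 in those without, so 13.6% is the closer comparison. The median level per kb was 122 with copies and 194 without. How reads shared between a gene and its copies were assigned is not stated, and the part of that step in these values was not tested. TPI1 also shares its locus with SPSB2 on the other strand, which was at -0.65 (SE 0.39) and a mean count of 48.5 in the authors' deposited table. ENO1 overlaps the unlisted antisense gene ENO1-AS1, and whether the counting used strand is not given.

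HIF-1 binds the core letters ACGTG or GCGTG. RefSeq promoters on GRCh38.p14, from 250 bases before to 50 bases after a start, were found for 37 of the 39 genes, and none for BNIP3L and VEGFA. On either strand 30 of the 37 genes (81.1%) held the core in at least 1 promoter, beside 52.4% of all 27305 genes with a promoter. Counted per promoter it was 38 of 61 (62.3%) beside 48.4% of all 35116. Base composition and the number of starts per gene were not matched. Of the called genes 5 of 7 held the core and of the listed genes not called 24 of 28. PGAM1 and TKT did not hold it, and LDHB held it only after its start. A match is a description of these letters, not a binding site.

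The cores that lie before the starts of GPI, ENO1, TPI1 and PFKP are shown because they let the called genes be compared at the sequence level. Each is given 5′ to 3′ on the gene's strand with 10 bases on either side, and the core, or its reverse complement, in capitals. Of the 2 PFKP starts with a core the more upstream one is shown. The stretch of GPI lies within exons of longer GPI transcripts in GENCODE release 29, and that of PFKP lies in no annotated exon. Those of ENO1 lie within exons of ENO1 or its antisense gene ENO1-AS1, which were not told apart. The 250 bases before the downstream TPI1 start share 5 bases with TPI1 exons.
GPI, chr19:34364820-34364844, plus strand, 162 bases before the start: actgcctgtaACGTGgaaggtgttc
ENO1, chr1:8878838-8878862, minus strand, 166 bases before the start: cccccctttcCACGCtactgcagcc
ENO1, chr1:8878744-8878768, minus strand, 72 bases before the start: agctgaggggGCGTGccccggaggc
TPI1, chr12:6868027-6868051, plus strand, 68 bases before the downstream start: aggctgggccGCGTGggcttcccgc
TPI1, chr12:6868078-6868102, plus strand, 17 bases before the downstream start: tgcgccgccgCACGTagccccagac
PFKP, chr10:3069040-3069064, plus strand, 139 bases before the start: acgagcgcctACGTGatgcccggcc
Genes that rose (GPI, ENO1, TPI1) and a gene that fell (PFKP) alike carry the core upstream, and GPI and PFKP, at the start shown, carry the letters ACGTG in the same orientation. The other PFKP start with a core carries GCGTG, the form seen in ENO1 and in the first TPI1 stretch. The second TPI1 stretch carries CACGT, the reverse complement of ACGTG.

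The annotated 3′ UTRs of the called genes' principal transcripts varied in length, and all but that of GPI were shorter than the median of all coding genes matched. Which transcripts these cells express was not examined. The 3′ UTR of the principal transcript measured 200 bases in LDHB, 360 in ENO1, 445 in TPI1, 1049 in TKT and 2377 in GPI among the genes that rose, and 223 in PFKP and 917 in PGAM1 among those that fell. The median was 445 bases in the 5 genes that rose, 876.5 in the 30 that did not pass and 1061 in all 10484 coding genes matched. Transcript GC content ranged from 46.5% in LDHB to 58.9% in ENO1 among the genes that rose. PFKP, at 58.1%, and PGAM1, at 52.8%, lie inside that range.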

How the data were processed

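The data were 1 table of the authors' comparison of 2 BTG2 libraries with 2 empty-vector libraries. The deposited mean is a signal (a normalized count averaged over all libraries), per the file headers. Log ratios (fold changes) and SEs are on the log2 scale, the test statistic is a score and the p-value columns hold raw and adjusted values, all as deposited by the authors. Minimap2 and hg38 are named per the submitters' processing notes; no source used here states which program, normalization, gene annotation or filter made the table. No column held one library, so depth is unknown. The deposited adjusted p equals a Benjamini-Hochberg adjustment over the 11597 genes within 1.48e-06.

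Computed here were calls at adjusted p under 0.05, 95% normal intervals, levels per kb, close copies (BLAST 2.17.0 megablast of coding sequences against GENCODE 29 transcripts, genes overlapping on the same strand left out, limits chosen after seeing the data) and promoter motifs. Principal transcripts were APPRIS-ranked, then taken by longest coding sequence and longest transcript. The levels per kb and 3′ UTR lengths rest on that choice, not on the transcripts these cells express. Adjustment and recentring were tested on simulated data. Every listed gene of the set is named, full values going to those called, and of the further pathway genes all called are named; 1 more gene on the original list was left out of all counts and is not reported here. The genes and lists were chosen with earlier results of these data known. Alternatives are in the closing section. Computation used Python 3.11.15, numpy 2.4.6, pandas 2.3.3, scipy 1.17.1 and matplotlib 3.10.9.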

Additional observations from a re-analysis of the deposited data

How the results depend on the processing

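The 7 called genes numbered 7 too at adjusted p limits of 0.01 and 0.1, with the adjustment redone over all genes or over genes of at least the median count, and after recentring on the median abundant gene, a shift of -0.03. A minimum absolute log2 fold change of 0.5 left 4 called, 0 of them lower. Leaving out genes with close copies, an alternative chosen after seeing the data, left 3 called, 2 higher and 1 lower, by construction of fewer genes. Recentring turned the sign of PKM and BNIP3 alone, both at -0.01 and not called. The median log2 fold change stayed between 0.01 and 0.05 under the alternatives run. Of the further pathway genes 5 were called at an adjusted p under 0.1, 2 of them higher (ELOB and BHLHE40). No paired analysis was possible because the table holds no values per library, and for the same reason replicates were not left out and no count-based test was run.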
